A study of Mus musculus with 16 samples.

Results

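Livers of mice carrying both a C-MYC and a REG3A transgene were profiled by comparing the tumour of each mouse with the non-tumour liver of the same mouse. The comparison held 8 of the 16 arrays of the series, chosen by their titles: 4 tumours and 4 non-tumour samples, paired by mouse number. Of the 41345 rows of the expression table, the 23521 rows annotated with exactly 1 gene symbol were used. They gave 22180 genes, and the 13555 whose signal lay above the array median in at least 4 of the 16 arrays were tested.

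The mice were of the C57BL/6J background, 18 months old, and labelled MYC+/+, REG3A+/+. Their C-MYC transgene, from the WHC-MYC line, was expressed in liver under woodchuck hepatitis virus control. The promoter of the REG3A transgene is not given in the sources used here. The other 8 arrays came from 4 MYC mice of the same age, labelled MYC+/+, REG3A-/-, again as tumour and non-tumour pairs, so every mouse carried the C-MYC transgene and no group was free of it. Tissue was dissected and snap frozen, and total RNA was read on an expression microarray.

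C-MYC is a transcription factor that pairs with MAX and is known for raising ribosome production, nucleotide synthesis and cell cycle entry in liver. REG3A is a secreted C-type lectin of the regenerating protein family, made mainly by the pancreas and gut and also found in liver tumours. In liver, hepatocytes line blood channels whose walls hold fenestrated endothelial cells, resident macrophages called Kupffer cells, and vitamin A-storing stellate cells.

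All values are log2 RMA levels, a scale on which a difference of 1 means a doubling of signal. The arrays were normalised to one common distribution, so a change here is a shift against the rest of the array. Array medians lay between 4.8961 and 4.9734, and lower quartiles between 3.7079 and 3.7742. The table carries no detection calls, so a level near the lower quartile was read as near background.

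The tissue matched its label. Alb, the main plasma protein of hepatocytes, read 13.57, 13.57, 13.55 and 13.53 in the non-tumour liver of mice 1 to 4 and 13.42, 13.54, 13.42 and 13.47 in their tumours. The mean level over 13 hepatocyte markers lay between 12.49 and 12.70 in the non-tumour arrays and between 12.29 and 12.53 in the tumours. Of these 13 markers, 1 fell and none rose: Serpina1a, which encodes a form of alpha-1 antitrypsin, changed by -0.72 (SE 0.172, adjusted p = 0.0265), a call lost without mouse 1, 3 or 4.

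The transgenes themselves could not be followed. The species of neither transgene is stated, and mouse probes may not read them. The Myc row read 6.99, 9.24, 7.69 and 7.97 in non-tumour liver and 7.10, 9.37, 7.26 and 7.58 in tumours, so mouse 2 stood above the other 3 mice in both tissues. Its change was -0.14 (SE 0.127, adjusted p = 0.486). The 7 rows of the mouse Reg family did not pass the filter, and Reg3a lay between 3.07 and 3.47 on all 8 arrays. Afp and Gpc3, which many liver cancers switch back on, did not pass the test either: Afp changed by 0.09 (SE 0.172, adjusted p = 0.757) and Gpc3 by -0.06 (SE 0.131, adjusted p = 0.801).

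Between tumour and non-tumour liver, 1690 genes (12.5% of those tested) passed limma's moderated test at an adjusted p under 0.05. Of these, 1028 (7.58%) were higher and 662 (4.88%) lower in tumours. The median change over all tested genes was -0.02. The direction was the same in all 4 mice for 1669 of the 1690 called genes, against 5480 of the 13555 tested (40.4%). The calls were made from the same paired differences, which favours genes of 1 direction, so the first share is not separate support. Large falls were less uniform across mice than large rises: 70 called genes rose by at least 1 in every mouse, while 3 fell by at least 1 in every mouse, out of 261 called rises and 127 called falls with a mean change of at least 1. The 4 mice differed in the size of the change. A difference of at least 1 in either direction was seen for 1389 genes in mouse 1, 228 in mouse 2, 1192 in mouse 3 and 438 in mouse 4, and in mouse 2 these were 205 higher and 23 lower. Across the tested genes, the changes of any 2 mice correlated at 0.47 to 0.667, which is a description over genes that are not independent replicates. Without mouse 1 the count of calls was 281, without mouse 3 it was 273 and without mouse 4 it was 944.

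The gene that rose furthest in its least changed mouse was a regulator of mitosis, and Plk1 and Cdk1 were also among the 15. Ccnb2, the cyclin partner of CDK1 at entry into mitosis, read 5.05, 5.60, 5.51 and 5.55 in non-tumour liver and 9.54, 8.17, 8.20 and 8.86 in tumours. Every tumour lay well above every non-tumour sample, and the change was 3.27 (SE 0.291, adjusted p = 0.00227). Plk1, a kinase that controls spindle assembly and mitotic exit, read 5.28, 5.37, 5.43 and 5.73 in non-tumour liver and 9.14, 7.38, 7.39 and 8.27 in tumours, a change of 2.59 (SE 0.333, adjusted p = 0.00464). Cdk1, the mitotic kinase itself, rose by 3.99, 1.49, 1.80 and 1.88 in mice 1 to 4 (mean 2.29, SE 0.36, adjusted p = 0.00724). For all 3 genes the rise was largest in mouse 1.

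The promoters of these 3 genes are shown because their genes rose together and because many mitotic genes are known to share a pair of elements: the CHR, bound by the MuvB complexes that time late cell cycle genes, and the CCAAT box, bound by NF-Y. Capitals mark each TTTGAA or TTCGAA (CHR) and each CCAAT, or their reverse complements, within 300 bases around the start site. The sequences are from RefSeq on GRCm38.p6, 5′ to 3′ on the gene's strand. Ccnb2 lies at chr9:70421505-70421804 (minus strand), Plk1 at chr7:122159185-122159484 (plus strand) and Cdk1 at chr10:69352863-69353162 (minus strand).
Ccnb2: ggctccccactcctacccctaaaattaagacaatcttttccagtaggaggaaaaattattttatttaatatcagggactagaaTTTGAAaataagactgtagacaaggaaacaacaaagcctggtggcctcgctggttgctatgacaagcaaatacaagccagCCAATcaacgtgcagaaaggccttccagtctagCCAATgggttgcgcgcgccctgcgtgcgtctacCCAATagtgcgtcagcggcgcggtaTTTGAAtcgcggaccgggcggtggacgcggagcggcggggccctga
Plk1: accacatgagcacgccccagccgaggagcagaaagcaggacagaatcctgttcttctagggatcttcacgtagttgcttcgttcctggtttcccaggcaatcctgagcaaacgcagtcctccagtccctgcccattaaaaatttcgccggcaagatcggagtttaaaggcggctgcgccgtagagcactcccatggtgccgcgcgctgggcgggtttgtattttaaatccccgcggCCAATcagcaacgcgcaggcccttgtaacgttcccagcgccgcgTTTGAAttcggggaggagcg
Cdk1: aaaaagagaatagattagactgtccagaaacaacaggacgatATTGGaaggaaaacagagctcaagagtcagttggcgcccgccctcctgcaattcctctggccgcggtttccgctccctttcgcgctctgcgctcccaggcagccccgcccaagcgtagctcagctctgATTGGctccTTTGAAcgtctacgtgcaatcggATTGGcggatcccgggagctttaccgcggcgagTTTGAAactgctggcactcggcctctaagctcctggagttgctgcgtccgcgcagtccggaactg
Ccnb2 and Cdk1 each held 2 CHR and 3 CCAAT matches, and Plk1 held 1 of each. Of the 42 tested mitosis and spindle genes with a promoter in the RefSeq table, 33 (78.6%) held a CHR match and 31 (73.8%) a CCAAT match. Among the 10633 tested genes with a promoter the shares were 16.2% and 41.6%. Among all 27025 genes with a promoter in the RefSeq table they were 21.7% and 41.1%. In these shares a gene with several start sites counted when any of its promoters held the match. A match is a description of the letters and not evidence of binding.

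Over the whole list of mitosis and spindle genes, 44 of 50 tested members rose and none fell, with a median change of 1.35. Of the 50, 27 passed the filter on low values only with the tumour arrays, so they had to be higher there, and 24 of these rose. Among the 23 that passed on the non-tumour arrays alone 20 rose, and with no filter 43 of the 56 members with a row rose and none fell. Over the 50 tested members, the median was positive in each mouse, at 2.15, 0.82, 1.09 and 1.26. Both members named next are among the 27. Ckap2l, a spindle protein, changed by 1.33 (SE 0.152, adjusted p = 0.00313), and Top2a, the topoisomerase that untangles replicated chromosomes, by 1.5 (SE 0.189, adjusted p = 0.00446). Without mouse 1 the count of rises was 27, and without mouse 3 it was 29.

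Among DNA replication genes, 16 of 37 rose and none fell (median 0.52). Of the 37, 5 passed the filter on low values only with the tumour arrays, and 2 of these rose. Among the 32 that passed on the non-tumour arrays alone, 14 rose. Mcm2, a subunit of the replicative helicase, read 5.97, 5.69, 5.76 and 5.64 in non-tumour liver and 7.67, 6.39, 7.38 and 7.22 in tumours, and its change was 1.4 (SE 0.165, adjusted p = 0.00349). Its partner Mcm4 rose by 1.4 (SE 0.222), and the groups did not overlap for either. The loading factor Cdt1 rose by 0.98 (SE 0.181), a call lost without mouse 1 or 3, and Gins2, which helps activate the helicase, by 0.95 (SE 0.168), a call lost without mouse 3. The list held 5 rises without mouse 1 and 2 without mouse 3.

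Among cyclins, CDKs and their inhibitors, 10 of 27 rose and none fell. Ccna2, the S-phase and G2 cyclin, rose by 2.13 (SE 0.274, adjusted p = 0.00464). Cdkn3 and Cks1b, which both bind cyclin-dependent kinases, rose by 1.55 (SE 0.243) and 0.77 (SE 0.13). The CDK inhibitor p21, encoded by Cdkn1a, rose alongside the genes of division. It read 9.08, 6.74, 6.75 and 6.76 in non-tumour liver and 10.55, 8.34, 9.16 and 9.14 in tumours. Mouse 1 was high in both tissues, so the groups overlapped, yet every tumour lay above its own liver (change 1.96, SE 0.181, adjusted p = 0.00241). Cdkn3 passed the filter only with the tumour arrays. Without mouse 1 or mouse 3 the list held 5 rises.

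Cdkn1a is also the best known target of p53. Of 25 tested p53 targets, 5 rose (20%, against 7.58% of all tested genes) and none fell (median 0.14). Tnfrsf10b, a death receptor, rose by 1.56 (SE 0.273), a call lost without mouse 3. The remaining members named by the rule, Ckap2 (1.5, SE 0.236) and Psrc1 (0.82, SE 0.164, lost without mouse 1 or 3), are also spindle proteins. Tnfrsf10b and Ckap2 passed the filter only with the tumour arrays. Among the 23 members that passed on the non-tumour arrays alone, 3 rose. The count was 3 without mouse 1 and 2 without mouse 3.

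**Figure D1:**
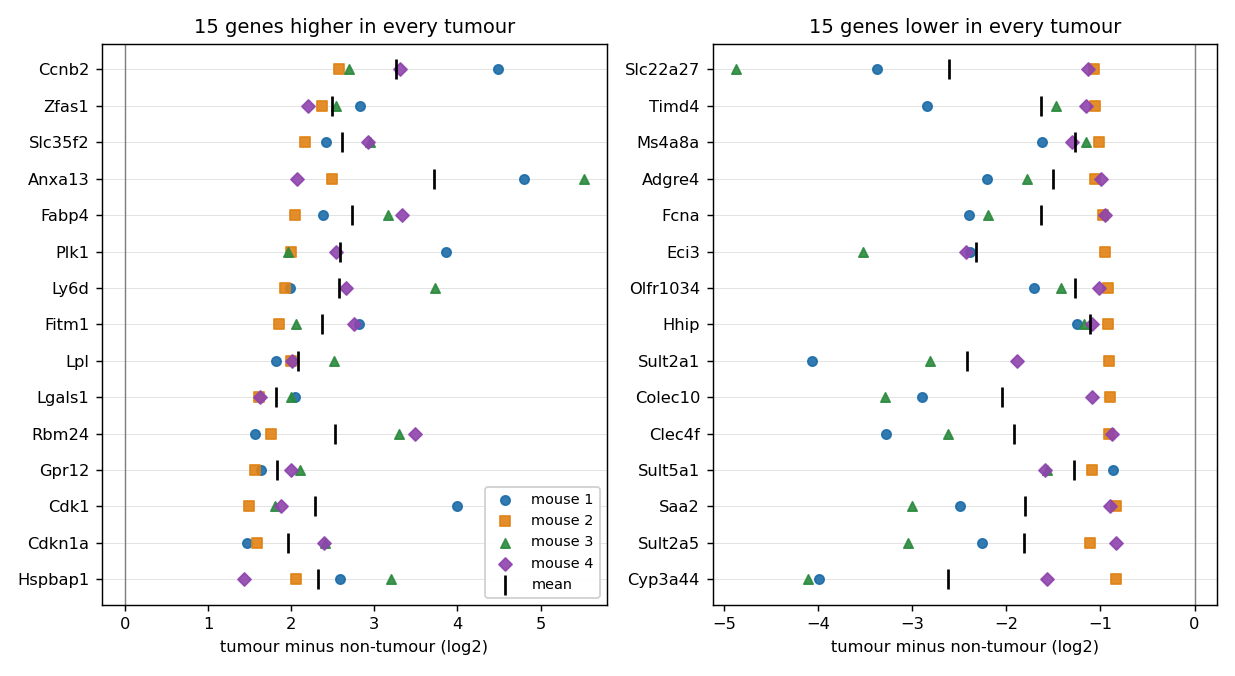
Tumour minus non-tumour level (log2) in each of the 4 MYC/REG3A mice for the 15 genes that rose and the 15 that fell with the largest change in their least changed mouse. Coloured symbols are mice and black bars are means over the 4 mice. The least changed mouse still rose by 1.43 to 2.57 on the left and fell by 0.83 to 1.07 on the right.

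The production of ribosomes formed the next large block of rises. Among ribosome biogenesis genes, 27 of 37 rose and none fell, with a median of 0.66 and mouse medians of 1.15, 0.56, 0.57 and 0.40. Nhp2, a core protein of the particles that convert uridine to pseudouridine in ribosomal RNA, read 6.89, 6.93, 6.85 and 7.0 in non-tumour liver and 8.80, 8.03, 7.97 and 8.07 in tumours (change 1.3, SE 0.144, adjusted p = 0.00274). The non-tumour livers were nearly level, and every tumour lay above all of them. Nop56, a core protein of the methylating particles, rose by 1.48 (SE 0.22), Ppan by 1.23 (SE 0.186) and Wdr43 by 0.87 (SE 0.123). Both Ppan and Wdr43 act in the assembly of ribosomal subunits. The list held 7 rises without mouse 1 and 10 without mouse 3.

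Transcripts that carry small nucleolar RNAs in their introns rose with them. Of 14 tested host transcripts, 10 rose and none fell (median 0.99). Zfas1, a host RNA, read 7.79, 8.06, 8.12 and 7.67 in non-tumour liver and 10.62, 10.43, 10.66 and 9.87 in tumours. This was one of the most even rises of all, at 2.83, 2.37, 2.54 and 2.20 in mice 1 to 4 (mean 2.49, SE 0.253, adjusted p = 0.00247). Snhg1 (1.4, SE 0.143), Snhg6 (1.36, SE 0.187) and Snhg15 (0.90, SE 0.135) followed. The host list held 5 rises without mouse 1 and 4 without mouse 3.

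The small nucleolar RNAs were looked at after the values had been seen. Of 60 tested rows, 27 rose and none fell, with a median of 0.68. Snord83b, which lies within the ribosomal protein gene Rpl3, read 5.91, 6.17, 6.04 and 5.46 in non-tumour liver and 8.53, 7.86, 8.29 and 7.25 in tumours (change 2.09, SE 0.153, adjusted p = 0.00148). All 27 rows that rose lie within the span of a longer gene in the RefSeq table, and 15 of the 16 distinct tested host genes also rose. The host without a call was Snhg12 (0.60, SE 0.194, adjusted p = 0.0678). Probes of a row may read the host transcript as well as the small RNA, and the sources used here do not separate them. Without mouse 1 the count was 13, and without mouse 3 it was 13.

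Other steps of gene expression moved in the same direction. Among RNA polymerase I and III subunits, 9 of 27 rose (median 0.36), led by Polr2f (0.83, SE 0.0959, adjusted p = 0.00336) and Polr2k (0.67, SE 0.0988), which all 3 nuclear RNA polymerases share. Taf1d (1.62, SE 0.219), a factor of polymerase I initiation, and Polr1b (0.86, SE 0.129), its second-largest subunit, also rose. Taf1d has 11 rows on the array and is itself a host of small nucleolar RNAs. The list held 4 rises without mouse 1 or without mouse 3.

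Among translation factors, 15 of 36 rose and none fell. Eif3h and Eif3e, subunits of the initiation factor that binds the small ribosomal subunit, rose by 0.85 (SE 0.116) and 0.91 (SE 0.14). Eef1b2, an elongation factor, rose by 1.14 (SE 0.175). Among aminoacyl-tRNA synthetases, 6 of 18 rose, including those for arginine (Rars, 0.68, SE 0.102) and valine (Vars, 0.92, SE 0.143). Among chaperonins, 6 of 21 rose, including the ring subunits Cct5 (1.07, SE 0.165) and Cct8 (0.97, SE 0.166), the latter a call lost without mouse 1 or 3. Among mitochondrial ribosomal proteins, 14 of 67 rose, with mouse 1 at a median of 0.57 and the other mice at 0.20 to 0.23. Without mouse 1 these 4 lists held 4, 2, 1 and 0 rises in that order, and without mouse 3 they held 4, 2, 1 and 1.

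Among enzymes of nucleotide synthesis, 12 of 27 rose and none fell. Dctd, which converts dCMP to dUMP, read 5.51, 5.39, 5.43 and 5.02 in non-tumour liver and 8.07, 7.24, 8.25 and 5.88 in tumours (change 2.02, SE 0.294, adjusted p = 0.00664). Mouse 4 had the smallest rise, 0.86. The purine enzymes Adsl (0.99, SE 0.18) and Gart (0.87, SE 0.176) and the CTP synthase Ctps (0.85, SE 0.174) rose too, and all 3 lost their calls without mouse 1 or 3. The list held 1 rise without mouse 1 or without mouse 3.

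The CACGTG E-box is the motif that MYC and MAX are known to prefer. It was present in a 300-base promoter of 15.3% of 766 genes that rose and 8.62% of 522 genes that fell. The share was 11.4% for all tested genes with a promoter. Of the 34 ribosome biogenesis genes with a promoter 6 held it, and of the 25 nucleotide synthesis genes 5. Of the 42 mitosis and spindle genes 3 held it (7.14%), a share below that of all tested genes. The motif was held by 6 of 30 DNA replication genes (20%) and 8 of 27 translation factor genes (29.6%). The 2 promoters below are from the ribosome biogenesis and nucleotide synthesis lists. Each is that of the called member with the lowest p in its list that holds the motif, with CACGTG in capitals. They are Wdr43 at chr17:71615965-71616264 and Atic, an enzyme of the last steps of purine synthesis, at chr1:71556906-71557205 (both plus strand, GRCm38.p6, RefSeq).
Wdr43: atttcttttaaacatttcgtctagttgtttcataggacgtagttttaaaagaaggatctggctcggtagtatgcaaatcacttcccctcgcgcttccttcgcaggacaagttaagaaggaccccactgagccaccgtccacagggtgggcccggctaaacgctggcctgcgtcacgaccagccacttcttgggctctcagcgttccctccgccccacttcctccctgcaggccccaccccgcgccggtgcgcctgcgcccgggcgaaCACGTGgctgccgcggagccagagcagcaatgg
Atic: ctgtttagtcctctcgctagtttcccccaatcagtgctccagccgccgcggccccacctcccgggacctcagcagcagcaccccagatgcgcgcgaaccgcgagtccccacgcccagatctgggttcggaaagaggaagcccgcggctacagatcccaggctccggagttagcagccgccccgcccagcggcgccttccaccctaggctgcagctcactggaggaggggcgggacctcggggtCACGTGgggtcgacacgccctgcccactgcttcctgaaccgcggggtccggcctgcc
Atic changed by 0.70 (SE 0.148, adjusted p = 0.0189), a call lost without mouse 1 or 3. Within the MYC, MAX and MXD network, 1 of 11 tested members rose (9.09%) and none fell. That is near the 7.58% of all tested genes that rose, so the member is given as a single value. Max, the obligate partner of MYC, read 8.60, 8.59, 8.74 and 8.53 in non-tumour liver and 9.24, 9.13, 9.51 and 9.31 in tumours (change 0.68, SE 0.104, adjusted p = 0.00713).

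**Figure D2:**
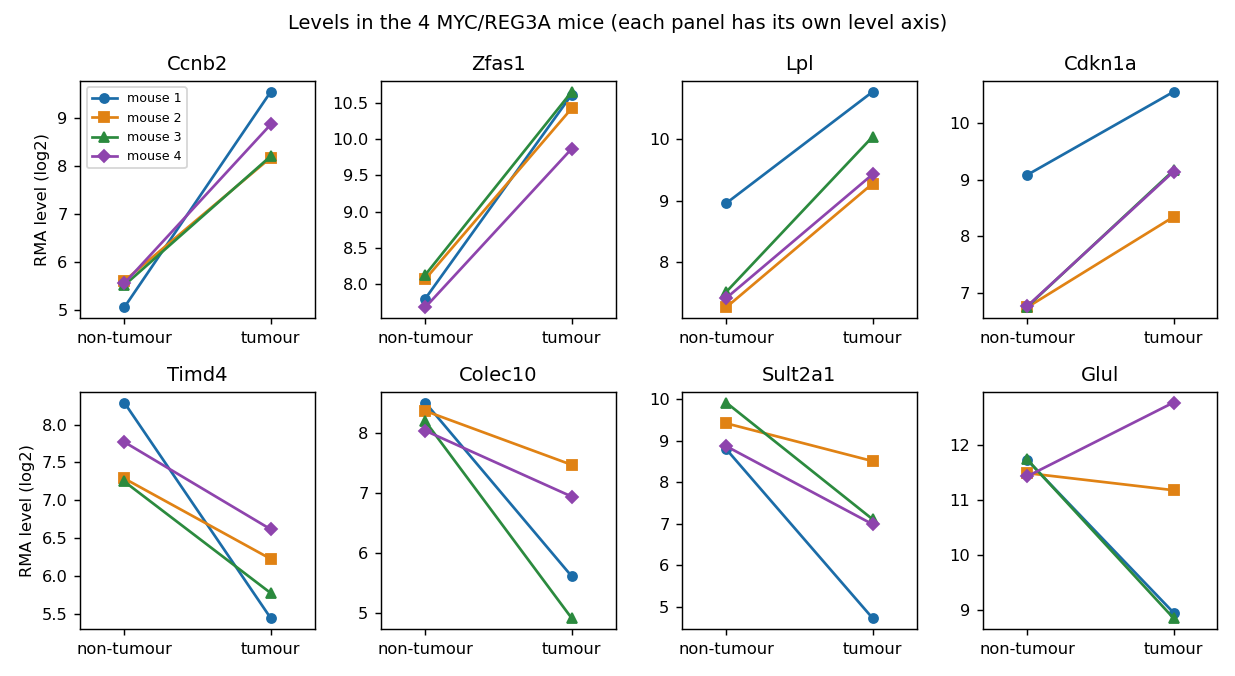
Levels (log2 RMA) of 8 genes in non-tumour liver and tumour, with a line joining the samples of each of the 4 MYC/REG3A mice. Ccnb2, Zfas1, Lpl and Cdkn1a rose in every mouse, Timd4, Colec10 and Sult2a1 fell in every mouse, and Glul fell in mice 1, 2 and 3 and rose in mouse 4.

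A few genes that take up and store fat stood among the 15 rises. In the list they belong to, 8 of 26 rose (30.8%, against 7.58% of all tested genes) and none fell. The median change of that list was small, at 0.12. Lpl, the lipase that releases fatty acids from circulating triglyceride, read 8.96, 7.27, 7.52 and 7.42 in non-tumour liver and 10.77, 9.28, 10.04 and 9.43 in tumours. The rise was 1.82, 2.0, 2.52 and 2.01 in mice 1 to 4 (mean 2.09, SE 0.292, adjusted p = 0.00561). Fitm1, a membrane protein that helps form lipid droplets, read 6.86, 7.51, 8.50 and 7.67 against 9.67, 9.36, 10.56 and 10.42 (change 2.37, SE 0.3, adjusted p = 0.0045). Fabp4, a fatty acid carrier, read 7.59, 6.46, 6.82 and 5.93 against 9.97, 8.51, 9.98 and 9.26 (change 2.73, SE 0.449, adjusted p = 0.00859), a call lost without mouse 3. All tumours lay above all non-tumour samples for these 3 genes. The list of lipid droplet and lipid uptake genes held 3 rises without mouse 1, 2 without mouse 3 and 3 without mouse 4.

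Fabp4 is also a marker of fat cells. Of the 10 adipocyte markers with a row, 7 were tested and 3 rose: Fabp4, Plin4 (1.39, SE 0.324) and Pparg (0.62, SE 0.144), the last pair losing their calls without mouse 1, 3 or 4. The mean level over the 10 markers was 6.22 to 6.42 in non-tumour liver and 6.67 to 7.37 in tumours. Adipoq lay between 3.78 and 3.99 on all 8 arrays and Lep between 3.93 and 4.08, near the lower quartile, and neither passed the filter. Plin1 changed by 0.11 (SE 0.112, adjusted p = 0.559). The part of fat cells in these values was not tested.

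The other genes with the largest rise in their least changed mouse had varied roles. Anxa13, an annexin of epithelial membranes, read 5.59, 5.52, 5.61 and 5.45 in non-tumour liver and 10.39, 8.01, 11.14 and 7.52 in tumours (change 3.72, SE 0.87, adjusted p = 0.0258), with mice 1 and 3 far above mice 2 and 4 and the call lost without either of the former. Slc35f2, a membrane transporter, was more even, at 4.43, 4.04, 4.12 and 4.03 against 6.84, 6.21, 7.07 and 6.95 (change 2.61, SE 0.233, adjusted p = 0.00227), but its non-tumour levels lay below every array median. Lgals1, the galactose-binding lectin galectin-1, rose by 2.05, 1.61, 2.0 and 1.63 (mean 1.82, SE 0.16, adjusted p = 0.00227). Rbm24, an RNA-binding protein, rose by 1.57, 1.76, 3.30 and 3.49, so mice 3 and 4 moved furthest. Slc35f2, Rbm24 and Gpr12 passed the filter on low values only with the tumour arrays, so a higher level in tumours was built into their selection, and the sizes rest on non-tumour levels near background. Gpr12, an orphan receptor, rose by 1.83 (SE 0.24) and Hspbap1 by 2.32 (SE 0.239). Ly6d, a surface protein used to mark cells in several epithelial and lymphoid lineages, read 8.67, 6.25, 6.71 and 7.92 against 10.65, 8.16, 10.45 and 10.58, so the groups overlapped. Its change of 2.57 (SE 0.634, adjusted p = 0.0304) lost its call without mouse 1, 3 or 4. In all, 12 of the 15 rises kept their call when any 1 mouse was left out.

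Among the 15 genes with the largest fall in their least changed mouse, genes of the liver sinusoid stood beside genes of hepatocytes. Of these 15, 5 kept their call when any 1 mouse was left out: Timd4, Fcna, Hhip, Sult5a1 and Olfr1034. Timd4, a phosphatidylserine receptor of resident Kupffer cells, read 8.29, 7.29, 7.25 and 7.77 in non-tumour liver and 5.45, 6.23, 5.78 and 6.62 in tumours (change -1.63, SE 0.259, adjusted p = 0.00764). Clec4f, a lectin made by mouse Kupffer cells, read 8.57, 8.53, 8.58 and 8.66 against 5.30, 7.62, 5.96 and 7.78 (change -1.92, SE 0.357, adjusted p = 0.0128). The non-tumour levels were nearly equal, and the tumours of mice 1 and 3 lay far below those of mice 2 and 4. The call was lost without mouse 1 or 3.

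Over the list of Kupffer cell and macrophage markers, 10 of 23 tested genes fell and none rose (median -0.63). Cd163, a haemoglobin scavenger receptor, changed by -0.72 (SE 0.129), a call lost without mouse 3. Cd5l, a protein secreted by tissue macrophages, changed by -1.61 (SE 0.297), a call lost without mouse 1 or 3. Adgre4, a macrophage receptor, changed by -1.51 (SE 0.27), also lost without mouse 1 or 3, and the soluble lectin Fcna by -1.63 (SE 0.245, adjusted p = 0.00712). The mean level over the 23 markers was 7.42 to 8.05 in non-tumour liver and 6.68 to 7.40 in tumours. Fewer cells of a type and less RNA per cell cannot be told apart in whole tissue. The list held 2 falls without mouse 1, 1 without mouse 3 and 7 without mouse 4.

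Of 20 sinusoidal endothelial markers, 12 fell and 1 rose, with a median of -0.60. Clec1b changed by -1.36 (SE 0.262, adjusted p = 0.0145), a call lost without mouse 1. The mannose receptor Mrc1 changed by -0.92 (SE 0.182) and the lectin Clec4g by -1.48 (SE 0.331), both lost without mouse 1 or 3. Flt4, the receptor for the vessel growth factors VEGF-C and VEGF-D, went the other way. It read 7.42, 7.88, 7.96 and 7.73 in non-tumour liver and 8.84, 8.67, 9.61 and 9.52 in tumours, with no overlap (change 1.41, SE 0.31, adjusted p = 0.0215), a call lost without mouse 1, 3 or 4. In MYC mice Flt4 changed by -0.32 (adjusted p = 0.467), and the difference between the genotypes, 1.73, had an unadjusted p of 0.00291 and did not pass the threshold after adjustment. The list held no fall without mouse 1 and 1 without mouse 3. Among markers of other vessels, 1 of 14 was higher and 1 lower (7.14% each, against 7.58% and 4.88% of all tested genes), and the difference between the 2 lists was not tested.

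Stellate cell and matrix genes fell in 6 of 22 cases and rose in none (median -0.49). Hhip, which binds and blocks hedgehog ligands, read 4.90, 5.64, 5.03 and 5.09 in non-tumour liver and 3.65, 4.73, 3.86 and 4.01 in tumours. The difference was -1.25, -0.92, -1.17 and -1.09 in mice 1 to 4 (mean -1.10, SE 0.147, adjusted p = 0.00502), and 3 of the 4 tumours lay near or below the lower quartiles, where the size of a fall cannot be measured. Lrat, which esterifies vitamin A for storage, changed by -1.49 (SE 0.37), Ecm1 by -1.67 (SE 0.365) and Colec11 by -0.93 (SE 0.2), and all 3 lost their calls without mouse 1 or 3. Colec10, a lectin related to Colec11, read 8.51, 8.37, 8.20 and 8.04 against 5.61, 7.47, 4.91 and 6.94 (change -2.05, SE 0.351, adjusted p = 0.00977), a call lost without mouse 1. The stellate list held 1 fall without mouse 1 or without mouse 3.

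Of 11 tested B and plasma cell genes, 3 fell and none rose. The antigen receptor chains Cd79a and Cd79b changed by -0.95 (SE 0.263) and -0.98 (SE 0.275), calls lost without mouse 1, 2 or 3, and Jchain, which joins secreted antibodies, by -2.38 (SE 0.675), lost without mouse 1 or 3. No tested gene of the T cell, NK cell or neutrophil lists passed the test (0 of 8, 0 of 4 and 0 of 11). The share of falls over all tested genes was 4.88%, so counts of 0 in lists this short do not set them apart. The genes with a row numbered 14, 12 and 15. With no filter on low values, 2 of the 12 NK cell genes fell, and no T cell or neutrophil gene did. The B cell list held no fall without mouse 1 or mouse 3, and none with no filter on low values.

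**Figure D3:**
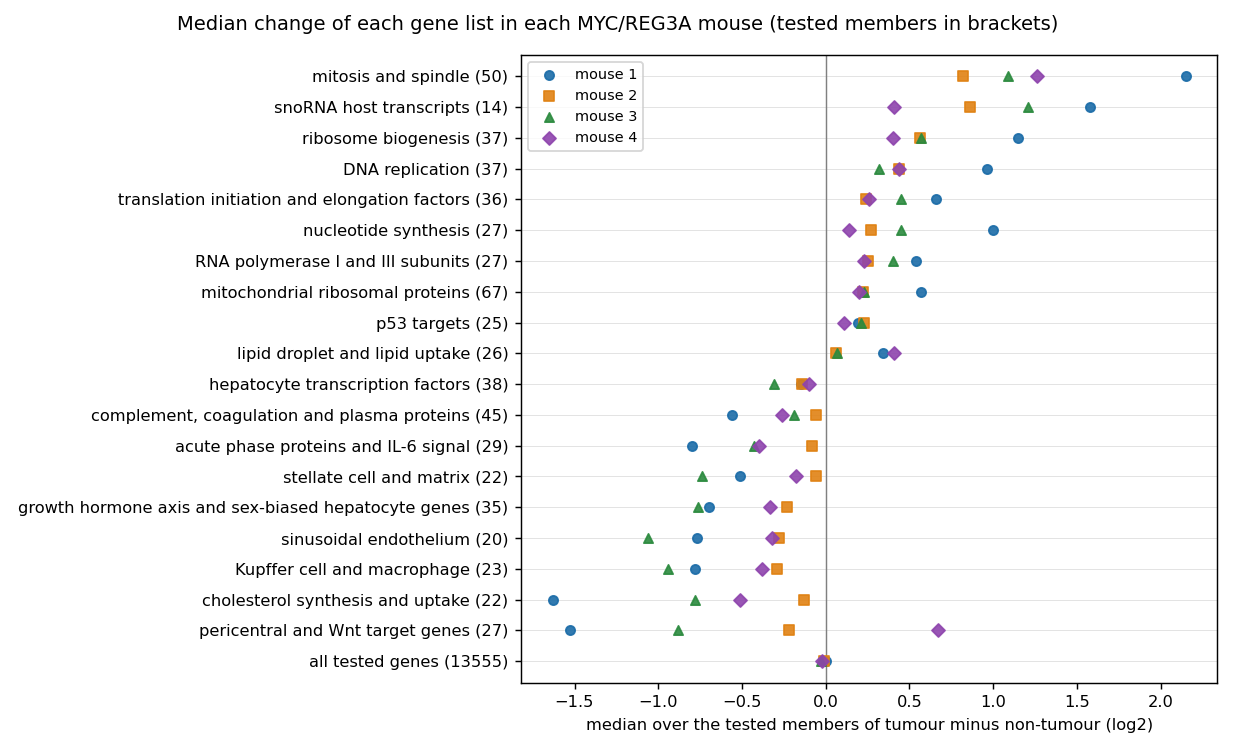
Median tumour minus non-tumour change (log2) over the tested members of 19 gene lists and over all 13555 tested genes, with 1 symbol per MYC/REG3A mouse. Mitosis medians lay between 0.82 and 2.15, sinusoidal endothelium medians between -1.06 and -0.28. The pericentral list lies at -1.53, -0.22, -0.88 and 0.67.

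Among 35 sex-biased and growth hormone-dependent genes of hepatocytes, measured here in whole tissue, 10 fell, 1 rose and 24 did not pass the test (median -0.54). Sult2a1, which adds sulfate to steroids and bile acids, read 8.80, 9.42, 9.92 and 8.87 in non-tumour liver and 4.73, 8.51, 7.11 and 6.99 in tumours (change -2.42, SE 0.435, adjusted p = 0.0114), a call lost without mouse 3. The spread of the tumours was far larger than that of the livers, and mouse 2 changed least, by -0.91. The growth hormone effector Igf1 read 11.61, 11.62, 11.57 and 11.56 in non-tumour liver and 10.92, 11.36, 10.83 and 10.96 in tumours (change -0.57, SE 0.122, adjusted p = 0.0195), a call lost without mouse 1, 3 or 4. Its carrier Igfals changed by -0.69 (SE 0.145) and Cyp3a44, a female-biased P450, by -2.62 (SE 0.5), both lost without mouse 1 or 3. The list held 1 fall without mouse 1, none without mouse 3 and 5 without mouse 4.

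Further genes stood among the 15 falls, some of them of hepatocyte metabolism. Slc22a27, an organic anion transporter, read 9.14, 9.86, 9.53 and 9.79 in non-tumour liver and 5.75, 8.79, 4.64 and 8.65 in tumours (change -2.62, SE 0.619, adjusted p = 0.0265). Mice 1 and 3 fell by 3.38 and 4.88 and mice 2 and 4 by 1.07 and 1.13, and the call was lost without mouse 1 or 3. Eci3, an enzyme of fatty acid oxidation, changed by -2.32 (SE 0.449) and the sulfotransferase Sult2a5 by -1.82 (SE 0.403), with the same dependence on mice 1 and 3. Sult5a1, another sulfotransferase gene, fell more evenly, by -0.87, -1.09, -1.57 and -1.59 (mean -1.28, SE 0.19, adjusted p = 0.00707). Ms4a8a, a gene of the multi-pass MS4A membrane proteins, changed by -1.27 (SE 0.27, lost without mouse 1, 3 or 4) and the olfactory receptor gene Olfr1034 by -1.27 (SE 0.164, adjusted p = 0.00476).

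Some genes of secreted defence proteins fell. Of 29 acute phase and interleukin-6 signal genes, 8 fell, none rose and 21 did not pass the test (median -0.47). Of 45 complement, coagulation and plasma protein genes, 9 fell, 1 rose and 35 did not pass (median -0.26). Saa2, a serum amyloid, read 13.50, 9.15, 8.87 and 13.23 in non-tumour liver and 11.01, 8.31, 5.87 and 12.33 in tumours (change -1.81, SE 0.428, adjusted p = 0.0265), a call lost without mouse 1 or 3. The non-tumour livers themselves differed here: averaged over the 29 acute phase genes, mice 1 and 4 lay at 11.68 and 11.30, above mice 2 and 3 at 10.49 and 10.53. Stat3, the transcription factor of this response, changed by -0.55 (SE 0.126), the metalloreductase gene Steap4 by -0.89 (SE 0.194) and Saa4 by -0.66 (SE 0.146). Complement C5 (Hc) changed by -0.61 (SE 0.12), complement factor B (Cfb) by -0.70 (SE 0.141) and coagulation factors IX (F9) and VII (F7) by -0.82 (SE 0.175) and -0.63 (SE 0.143). All 7 lost their calls without mouse 1 or 3, and Stat3, Saa4, F9 and F7 also without mouse 4. Neither list held a fall without mouse 1 or mouse 3, and without mouse 4 they held 2 and 4.

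Cholesterol synthesis genes fell in 7 of 22 cases and rose in none (median -0.72). The mouse medians were -1.63, -0.13, -0.78 and -0.51, so mouse 2 was nearly level. The sterol enzymes Lss (-1.05, SE 0.229), Mvk (-0.88, SE 0.2) and Cyp51 (-1.44, SE 0.353) fell, with calls lost without mouse 1 or 3 in each case and for Mvk also without mouse 4. Without mouse 2 the count of falls was 12, without mouse 4 it was 5, and without mouse 1 or mouse 3 it was 0. Among hepatocyte transcription factors, 4 of 38 fell (10.5%, against 4.88% of all tested genes) and none rose (median -0.18). They were Thrb, a thyroid hormone receptor (-0.77, SE 0.156), Esr1, an oestrogen receptor (-1.52, SE 0.365), Cux2 (-0.76, SE 0.171) and Onecut1 (-0.99, SE 0.281). None of them was called without mouse 1 or 3, and only Thrb was called without mouse 4. The list held no fall without mouse 1 or mouse 3.

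Other metabolic and stress lists held few calls, and the shares over all tested genes were 7.58% higher and 4.88% lower. Of 8 urea cycle genes 1 fell (12.5%), and of 33 genes of fatty acid oxidation and PPAR alpha targets 1 rose (3.03%). Of 35 NRF2 targets and glutathione enzymes 1 fell (2.86%), and of 32 genes of the unfolded protein and integrated stress response 3 rose (9.38%) and 2 fell (6.25%). Glycolysis and glucose handling genes rose in 3 of 27 cases (11.1%). Fatty acid and triglyceride synthesis genes fell in 3 of 23 cases (13%) and rose in 1, and circadian clock genes fell in 3 of 18 (16.7%). Interferon response genes fell in 3 of 32 cases (9.38%), with mouse medians of -0.69, 0.03, -0.11 and -0.30, so mouse 1 was lowest. No gene of MHC class II passed the test (0 of 8).

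Genes of the hepatocytes around the central vein split the mice. These genes, which depend on Wnt signals through beta-catenin, gave no call in either direction over 27 tested members (median -0.54). Their mean level lay between 9.57 and 9.69 in the 4 non-tumour livers but at 7.82, 9.40, 8.40 and 10.26 in the tumours of mice 1 to 4. In mouse 4, 22 of the 27 genes were higher in tumour, against 1 in mouse 1, 3 in mouse 2 and 2 in mouse 3. The members with the lowest p were Cyp2c37 (-1.13, SE 0.332, adjusted p = 0.0532), Cyp2c50 (-2.20, SE 0.708, adjusted p = 0.0685), Nkd1 (-0.55, SE 0.181, adjusted p = 0.0737) and Cyp2c54 (-2.31, SE 0.952, adjusted p = 0.136). Without mouse 4, 7 members fell.

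The following members were chosen after their values were seen, to show this split. Glul, glutamine synthetase, read 11.73, 11.49, 11.74 and 11.43 in non-tumour liver and 8.96, 11.18, 8.86 and 12.77 in tumours. Lgr5, a receptor that strengthens Wnt signals, read 8.06, 7.84, 7.68 and 7.98 against 4.33, 7.17, 4.32 and 9.15. For both genes the tumours of mice 1 and 3 were the lowest of the 8 arrays and that of mouse 4 the highest. Rhbg, an ammonium transporter, changed by -0.74, -0.18, -2.38 and 2.86, and the feedback gene Axin2 by -0.33, -0.29, -0.79 and 0.76. Sp5, a direct Wnt target, changed by -0.39, -0.14, -0.24 and 1.44. Ctnnb1, which encodes beta-catenin, read 9.76, 9.54, 9.56 and 9.81 in non-tumour liver and 9.58, 9.72, 9.84 and 11.20 in tumours, so mouse 4 stood apart for this transcript too. With 1 tumour per mouse this difference between mice has no replicate and no test. Rspo3, a Wnt-strengthening signal of vein endothelium, changed by -1.76, -0.23, -1.99 and -0.61 (mean -1.15, SE 0.26, adjusted p = 0.0232, lost without mouse 1 or 3).

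**Figure D4:**
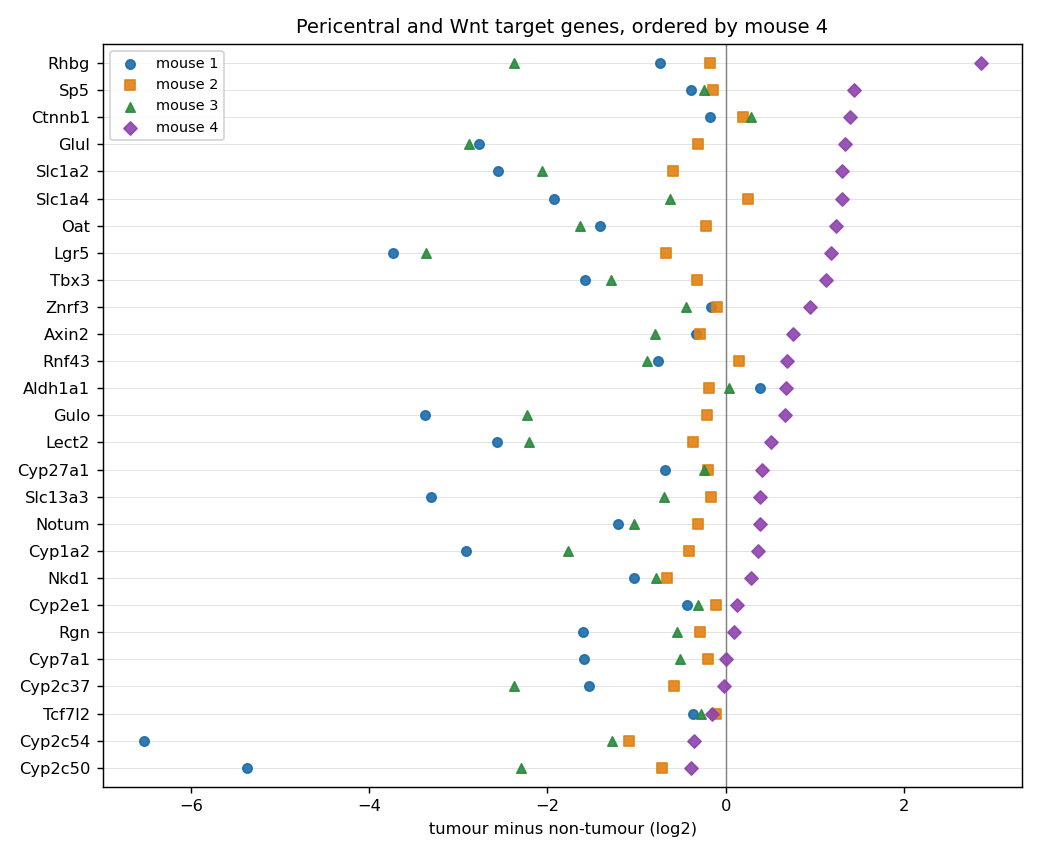
Tumour minus non-tumour change (log2) of the 27 tested pericentral and Wnt target genes in each of the 4 MYC/REG3A mice, ordered by the value of mouse 4. In mouse 4, 22 genes lie to the right of 0, and in mice 1, 2 and 3 the numbers are 1, 3 and 2.

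The same contrast was available in 4 MYC mice without the REG3A transgene. It shared no sample with this contrast, but both were tested in the same fit, with a shared residual variance per gene. There, 2357 genes (17.4%) were higher and 2148 (15.8%) lower in tumours, against 1028 and 662 here. Of the 1690 genes called in MYC/REG3A mice, 1533 (90.7%) were called in the same direction in MYC mice, which is 34.0% of the 4505 called there. Genes with a low shared variance are more easily called in both genotypes, so this overlap is not between independent tests. The sign was shared for 1685 of the 1690, and 157 were called in MYC/REG3A mice and not in MYC mice. A call in one genotype and not in the other does not show a difference.

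The difference of the tumour change between genotypes passed the threshold for 1 gene (0.00738% of those tested), and 756 genes (5.58%) had an unadjusted p under 0.05, a share near the 5% that the threshold itself allows. That count ran from 293 to 1275 over the settings tried. For 680 of the 756 genes the change was larger in size in MYC mice, a lean that was not tested. The gene that passed was Trim43c, a member of the TRIM43 family. Its levels were 4.72, 4.75, 4.53 and 4.52 in MYC/REG3A non-tumour liver and 5.33, 4.82, 4.81 and 4.59 in the tumours, mostly below the array medians. The gene passed the filter only with the tumour arrays, and those above the median were mainly the MYC tumours. In MYC mice the change was 2.13, and the tumours there lay at 6.78, 6.94, 6.05 and 6.87. The difference between genotypes was -1.87 (adjusted p = 0.0412), and no gene passed with no filter, with the stricter filter or without any 1 of the MYC mice.

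The genes next in line did not pass but are given by the naming rule. Mme, the cell surface peptidase neprilysin, read 8.28, 10.29, 10.24 and 9.01 in MYC/REG3A non-tumour liver and 9.29, 9.77, 9.51 and 9.69 in tumours, a change of 0.11 (SE 0.289). In MYC mice it changed by -3.21 (adjusted p = 0.000403), a difference of 3.32 (adjusted p = 0.0801). Lpcat4, which remodels membrane phospholipids, changed by 0.58 (SE 0.17) here and by 2.43 in MYC mice, a difference of -1.85 (adjusted p = 0.0851). Gask1a changed by 0.20 here and -1.34 in MYC mice, and Ces1d, a carboxylesterase, by -0.59 and -1.86. Inhba, an activin subunit, changed by -0.89 (SE 0.152, adjusted p = 0.00988) here and -1.99 in MYC mice. Tpbgl (-0.71 and -1.86), Enpp6 (-0.30 and -0.89), Zfp296 (0.42 and 1.3) and Phykpl (0.41 and 1.28) likewise had the smaller change in MYC/REG3A mice. Spatc1l (-0.64 and 0.66) and Fam187b (-0.22 and 0.43) had opposite signs, and the 2 rows of Spatc1l disagreed in sign. Of these genes Inhba and Tpbgl were called here, with calls lost without mouse 1 or 3 and, for Tpbgl, mouse 4.

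Called genes were unevenly spread over chromosomes, a pattern looked at after the values had been seen. On chromosome 16, 117 of 420 tested genes rose (27.9%) and 3 fell, and on chromosome 15, which carries Myc, 123 of 561 rose (21.9%) and 9 fell. The median change of chromosome 16 genes was 0.37, 0.17, 0.57 and 0.15 in mice 1 to 4, and in mouse 3 82.6% of them were higher in tumour. For chromosome 15 the medians were 0.28, 0.15, 0.20 and 0.13. On chromosome 14, 51 of 467 genes fell (10.9%), and the medians were -0.38, -0.09, -0.18 and -0.05, with mouse 1 lowest. On the X chromosome, 42 of 379 fell (11.1%), with medians of -0.35, -0.07, -0.15 and -0.24. Xist, the RNA that coats the inactive X chromosome, read 11.66, 11.70, 11.75 and 11.76 in non-tumour liver and 9.23, 11.93, 12.15 and 11.44 in tumours, so it was lower by 2.43 in mouse 1 and within 0.40 of the liver level in the others. Without mouse 1 or mouse 3 the rises on chromosome 16 numbered 19 each, and those on chromosome 15 were 36 and 37. The falls on chromosome 14 were then 2 each and on the X chromosome 2 and 3, and without mouse 4 they were 25 and 13. In MYC mice the median was 0.17 for chromosome 16, 0.19 for chromosome 15, -0.30 for chromosome 14 and -0.27 for X. DNA copy number was not measured, and its part in these values was not tested.

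**Figure D5:**
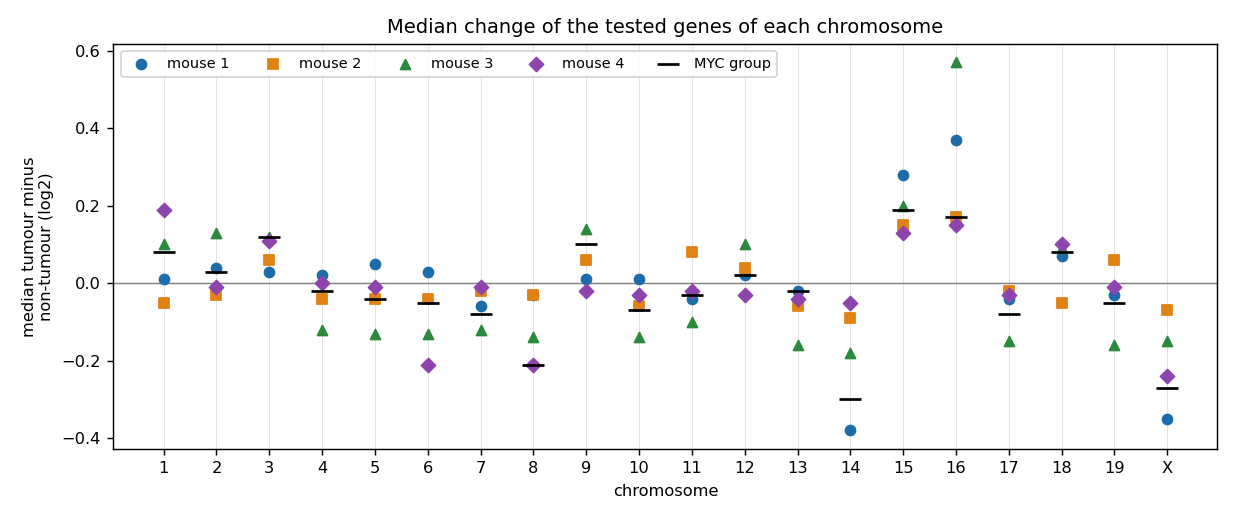
Median tumour minus non-tumour change (log2) of the tested genes of each chromosome, with 1 symbol per MYC/REG3A mouse and a black bar for the 4 MYC mice together. Chromosomes 15 and 16 lie above 0 in all 4 mice (0.13 to 0.28 and 0.15 to 0.57), and chromosome 14 and X lie below 0 in all 4.

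Rows named for microRNA genes were also looked at after the values had been seen. Of 123 tested rows, 2 rose (1.63%) and 5 fell (4.07%), which is no more than the 7.58% and 4.88% of all tested genes, so the members below are given as single values and not as a shift of the class. Mir1949, which lies within the host transcript Snhg4, read 3.55, 3.68, 3.61 and 3.60 in non-tumour liver, below every array's lower quartile, and 7.72, 6.25, 7.24 and 5.55 in tumours. It passed the filter only with the tumour arrays, and with non-tumour levels at background no fold is given. Snhg4 changed by 1.32 (SE 0.247), a call lost without mouse 3. Of the rows that fell, Mir107 and Mir16-1 are shown by a mature product each, because both miRNAs are well known in liver metabolism or growth control, with the seed (bases 2 to 8) in capitals, from RefSeq on GRCm38.p6.
miR-107-3p: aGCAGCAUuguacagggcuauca
miR-16-5p: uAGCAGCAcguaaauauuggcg
The seeds GCAGCAU and AGCAGCA differ but overlap. Both miRNAs hold AGCAGC, from base 1 in miR-107-3p and from base 2 in miR-16-5p. Mir107 lies within Pank1, a gene of coenzyme A synthesis. It read 9.09, 9.02, 10.09 and 9.47 in non-tumour liver and 7.88, 8.38, 7.58 and 8.39 in tumours (change -1.36, SE 0.337, adjusted p = 0.0312, lost without mouse 1, 3 or 4), and Pank1 changed by -0.64 (SE 0.207, adjusted p = 0.0693). Mir16-1 lies within Dleu2, and fell evenly by -0.57, -0.74, -0.68 and -0.62 (mean -0.65, SE 0.0974, adjusted p = 0.00707). Dleu2 changed by -0.86 (SE 0.189, adjusted p = 0.0213, lost without mouse 1, 3 or 4). Which transcript form the probes of these rows read is not given in the sources used here. Without mouse 1 the falls numbered 1, and without mouse 3 also 1.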

How the data were processed

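Total RNA (200 ng per sample) from 16 livers or tumours of 8 mice was hybridised to Affymetrix mouse gene arrays, 1 array per sample. The authors deposited 1 table of log2 values, which per the submitters' processing notes came from RMA as run by Expression Console 1.4.1. The log base is not given in the sources used here and was read from the value range. RMA background-corrects, quantile-normalises and summarises probes, so the deposited log2 values carry no depth and a change shared by most genes cannot be seen. The number of arrays limits the precision.

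Probe rows were named from the platform annotation: 23521 of 41345 rows had 1 symbol, 1814 several and 16010 none, and only the first were used. The row with the highest mean stood for a gene with several rows (1082 genes). Genes above the array median in at least 4 of 16 arrays entered limma 3.58.1 under R 4.3.3 (lmFit and eBayes, 2-sided, Benjamini-Hochberg over 13555 genes, threshold 0.05). The fit held all 16 arrays, the mouse as a fixed block and a tumour effect per genotype, with 6 residual and 3.77 prior degrees of freedom. Both arrays of a number come from the same mouse per the labels, and 7 of 8 non-tumour arrays correlated best, in deviations from the group means, with their own tumour (0.0983 to 0.3255). The exception was MYC/REG3A mouse 3 (0.0963 with its own). Each mouse was 1 replicate. The fit was tested on simulated data.

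The text names the 15 rises and 15 falls, called and of 1 direction in all 4 mice, with the largest change in their least changed mouse, leaving out predicted genes and small RNAs. It also names up to 4 members of lowest p per list described, up to 6 genes per direction for the difference between genotypes, and Myc, the Reg family, Afp, Gpc3 and Alb. Other names were chosen after their values were seen. The members and lists were chosen with earlier results of these data known. Promoters and mature miRNAs came from RefSeq (GRCm38.p6). Alternatives covered the mouse block, arrays in the fit, variance model, array weights, filter, row choice, centring and leaving out each mouse. Leaving out MYC/REG3A mice 2 and 4 together was added after seeing the data.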

Additional observations from a re-analysis of the deposited data

Results flagged for a closer look

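The gap between the most extreme mouse and its nearest neighbour was set against the range of the 4 MYC/REG3A mice for 134 genes and 53 gene lists. Its share of the range exceeded Dixon's critical value for 8 genes and 3 lists, and chance flags about 1 in 20 groups. In mouse 1 the tumour change was 3.99 for Cdk1, 2.68 for Ckap2, 1.91 for Nhp2 and 1.27 for Snhg12, each above the other mice, and -6.52 for Cyp2c54, below them. Mouse 2 was lowest for Mcm2, at 0.70, and mouse 4 was lowest for Ppan, at 0.63, and highest for the Wnt target Sp5, at 1.44. Among lists, mouse 1 stood apart for mitochondrial ribosomal proteins (median 0.57) and neutrophil markers (median -0.77), and mouse 3 for iron and heme handling genes (median -0.39).

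For Trim43c the tumour change in MYC/REG3A mice minus that in MYC mice was -1.87, which passed the test of the difference in the main setting. It passed the filter on low values through tumours, mainly of MYC mice, and no gene passed with no filter, with the stricter filter or without any 1 of the MYC mice.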

How the results depend on the processing

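The 1690 calls between MYC/REG3A tumours and non-tumour liver became 1613 with no replicate block, 2090 with the mouse as a random block, 1500 from the 8 MYC/REG3A arrays alone and 1416 with no filter. Leaving out 1 MYC/REG3A mouse gave 273 to 1630 calls (281 lacking mouse 1, 273 lacking mouse 3, 944 lacking mouse 4). Leaving out 1 MYC mouse gave 1410 to 1849. The 388 calls with a change of at least 1 ranged from 141 to 543 when 1 MYC/REG3A mouse was left out and numbered 760 without mice 2 and 4 together. The single call for the difference between genotypes became 0 with no replicate block, with no filter, with the stricter filter and without mice 2 and 4. It became 3 with array weights or centred arrays, and 0 to 2 when 1 mouse of either genotype was left out. Of the calls of the main setting, 276 were shared without mouse 1, 270 without mouse 3, 867 without mouse 4 and 1344 without mouse 2. The fit of the 8 MYC/REG3A arrays alone shared 1237 of them (73.2%). Centring the arrays moved the share of rises among calls to 53%, from 60.8%. Of 106 called genes among the 134 named, 53 lost their call without mouse 1, 57 without mouse 3 and 18 without mouse 4. Another 2 lost it without mouse 2 and 12 with no replicate block, counted separately. In the fit of the 8 MYC/REG3A arrays alone, 8 lost their call and 1 other named gene gained one. None reversed under the settings in which the named genes were followed. The fits without 1 MYC mouse, or without MYC/REG3A mice 2 and 4 together, were not among those settings. The cause of these changes was not tested, beyond the smaller number of mice where mice were left out. With 4 mice per genotype and no detection calls, changes of genes near background were not resolved, and a value from 1 tumour per mouse does not separate the mouse from the sampled piece of tissue.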
